A study of Drosophila melanogaster with 8 samples.

Results

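PolyA+ RNA of fly heads at late night was compared with that at ZT3, 3 hours after lights-on, within each of 2 entrainment temperatures. The comparison uses 4 of the 8 libraries of the series, namely late night at 18°C and at 29°C against ZT3 at 18°C and at 29°C. The members were taken by their labels of time and temperature. The labels place the last time point at 23 hours, while the methods of the study give ZT21, so it is called late night here. All libraries come from heads of Canton-S flies, a wild-type laboratory strain, kept in light:dark cycles, and no mutant or drug is involved. Neither the sex of the flies nor the number of heads behind a library was stated in the sources used here. The ZT15 libraries at 18°C and 29°C add to the measure of the spread. Where 1 of the 4 libraries is left out of the fit, they also enter the estimate of the difference. Their levels, and those of the 2 libraries at 25°C, which has no late-night library, are given beside some genes as a description. Each temperature and time has 1 library, so the 2 temperatures are the 2 pairs of the comparison. With temperature as the pairing, any p-value rests only on how the time differences vary between the 2 temperatures. It does not measure the spread between repeated libraries.

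Flies are crepuscular, and both ZT3 and late night flank the lights-on transition. In the fly clock, the transcription factors CLK and CYC drive per, tim, vri, Pdp1 and cwo, whose mRNAs peak in the early night, and whose products in turn repress or re-activate that transcription. Clk and cry mRNAs cycle in the opposite phase. Genes that respond to neuronal firing, such as Hr38 and sr, form a separate class that follows light and activity.

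Transcript abundance was measured as mean read coverage along each annotated transcript. All values of a library were multiplied so that they sum to 1000000, so levels below are scaled coverage, and differences are late night minus ZT3 on the log2(scaled value + 1) scale, which understates the change of low transcripts. A gene is represented by its transcript with the highest mean level. Of 18387 listed transcripts, 14799 had a mean level of at least 1 and were kept, from 8304 genes. Library sums before scaling ran from 92886 to 108550. Read depth is unknown, and so no counting error is given. The markers of neurons, glia and photoreceptors were present in all 4 libraries, with repo, a glial transcription factor, at 23.6 and 17.3 in late night at 18°C and 29°C and at 21.3 and 17.4 in ZT3. The ZT15 library at 29°C stood apart from the other 7, with 237 transcripts above 20 times their level in any other library, and 4 midgut proteases that summed to 714 there and to between 0.33 and 1.51 in the 4 libraries compared. The ZT15 values at 29°C below come from that library. That library is also in the fit of 6 libraries and in the refits without 1 library. It thus enters the SE and p-values of these fits.

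Few transcripts differed by a large amount in both pairs, and those that did were lower in late night. At least 2-fold lower at both temperatures were 20 transcripts of 10 genes, 0.135% of the 14799 kept, against 0 transcripts (0%) at least 2-fold higher. The 20 include all 10 kept transcripts of a single gene, frm. At 18°C alone, 11 transcripts were at least 2-fold higher and 85 lower in late night, and at 29°C alone the numbers were 28 and 66. With a limit of 1.5-fold at both temperatures, 46 genes (0.554% of 8304) were lower and 6 (0.0723%) were higher. The median gene differed by 0.01 at 18°C and -0.03 at 29°C. Ignoring size, 2615 genes (31.5%) were lower at both temperatures and 2398 (28.9%) were higher at both, while at a single temperature 47.2% were lower and 52.5% higher at 18°C, and 55.3% lower and 44.6% higher at 29°C.

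No transcript passed the test. In limma, with temperature as the pairing and the 6 libraries at 18°C and 29°C, 0 of 14799 transcripts (0%) had an adjusted p under 0.05, and 778 higher and 1011 lower transcripts had an unadjusted p under 0.05. By gene, 579 of 8304 (6.97%) were lower with such a p and 382 (4.6%) were higher. The smallest adjusted p by limma was 0.205, that of Hr38. With only the 4 libraries compared in the fit, which leaves out the ZT15 libraries, limma called 54 transcripts of 34 genes, 2 of them higher and 52 lower in late night, with 1 residual degree of freedom in place of 2. The 52 include the 10 transcripts of frm. An exact permutation test of 2 against 2 libraries cannot give a two-sided p under 0.333, nor one that flips the signs of the 2 pairs under 0.5.

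**Figure D1:**
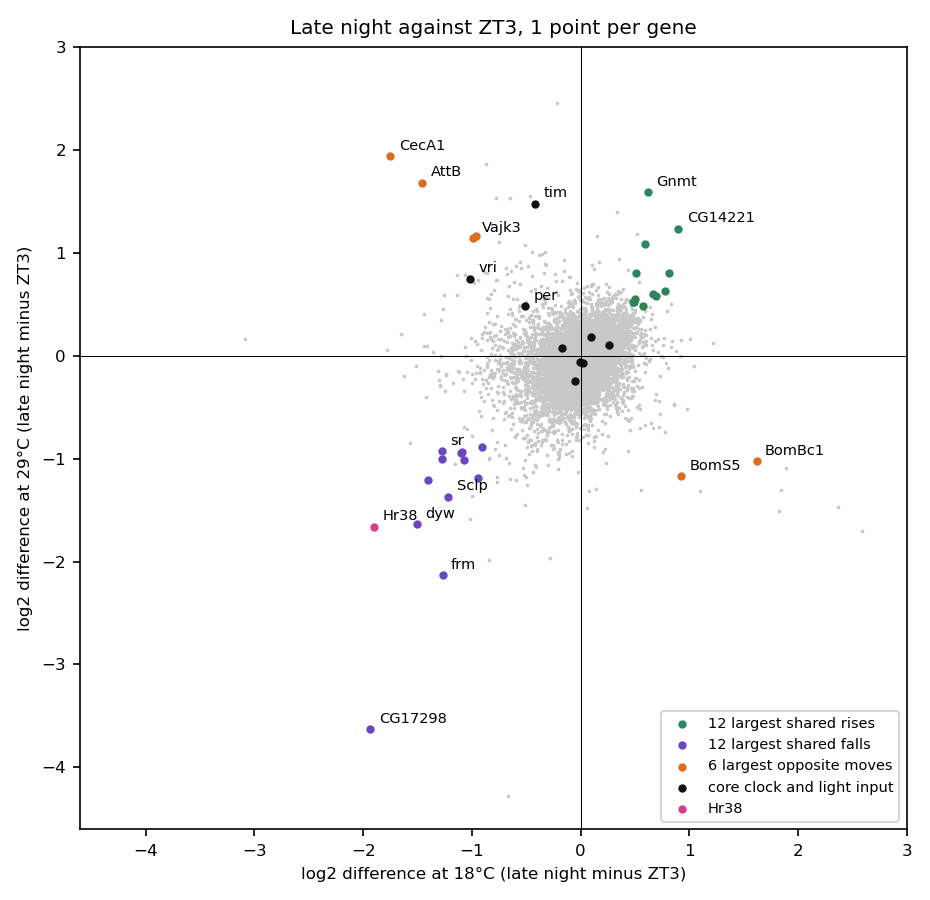
Log2 differences (late night minus ZT3) at 18°C on the x axis and at 29°C on the y axis, with 1 grey point for each of 8304 genes and named groups in colour. The lower left holds the genes lower in late night at both temperatures, from sr to CG17298, the upper right holds the smaller shared differences led by CG14221 and Gnmt, and CecA1, AttB, tim and vri lie in the upper left, lower at 18°C and higher at 29°C.

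Of 11 genes that respond to neuronal activity, 7 were lower in late night at both temperatures, and none had an adjusted p under 0.05 by limma. Hr38, the fly NR4A-type nuclear receptor whose transcription follows neuronal firing and whose exons overlap CG2617 on the opposite strand, had a level of 1.25 at 18°C and 0.97 at 29°C in late night, against 7.41 and 5.22 in ZT3. The late-night and ZT3 values did not overlap, and the log2 difference was -1.90 at 18°C and -1.66 at 29°C, a mean of -1.78 ± 0.10 (SE, limma, adjusted p = 0.205). Hr38 was low also in the ZT15 libraries, at 1.84 at 18°C and 1.25 at 29°C. At 25°C it was at 3.97 at ZT3 and 1.37 at ZT15. In bulk RNA, fewer cells of a type and less RNA per cell cannot be told apart.

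The gene sr, which encodes an Egr-type zinc finger factor, was at 3.58 and 2.94 in late night at 18°C and 29°C, against 10.1 and 6.47 in ZT3. Its mean log2 difference was -1.10 ± 0.15 (SE, limma, adjusted p = 0.377). CG14186 had 15.5 and 16.1 in late night, against 27.2 and 38.9 in ZT3. CG17778 had 10.9 and 9.78 in late night, against 18.3 and 15.5 in ZT3. For sr and CG14186, as for Hr38, every late-night and ZT15 library lay below every ZT3 library of the series, with the 25°C libraries included. The same held for CG17778, whose ZT15 levels were between 9.50 and 12.1. CG14186 and CG17778 were named after their values were seen. The share of all genes whose libraries separate by time was not counted, here or for other named genes.

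Of these 11 genes, 1 was higher at both temperatures and 3 had mixed signs. Over all genes, 31.5% were lower and 28.9% higher at both. The list's median was -0.30 at 18°C and -0.29 at 29°C. The 4 members lower by at least 1.5-fold at both temperatures were Hr38, sr, CG14186 and CG17778, and 6 of 11 had an unadjusted p under 0.05 by limma, all lower, beside 6.97% of all genes. The member higher at both temperatures was kay, which encodes Fos and has many uses beside neuronal activity. kay was at 39.9 and 40.9 in late night, against 34.8 and 35.8 in ZT3. puc, a phosphatase that is a target of JNK signalling, was at 13.96 and 11.8 in late night, against 18.4 and 14.5 in ZT3.

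**Figure D2:**
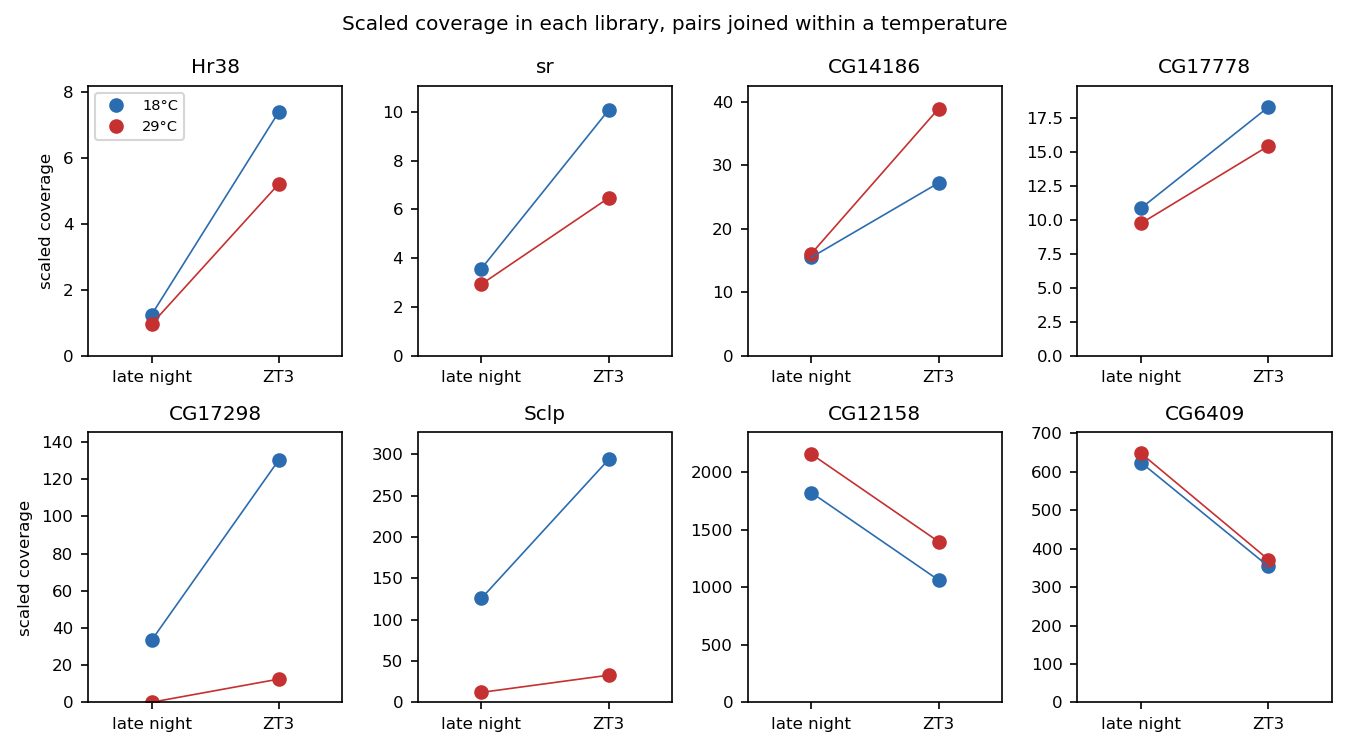
Scaled coverage of 8 genes in late night (left) and ZT3 (right), with 1 point per library, blue for 18°C and red for 29°C, and lines joining the 2 libraries of a temperature. Hr38, sr, CG14186, CG17778, CG17298 and Sclp are lower in late night in both pairs, and CG12158 and CG6409 are higher in both, with CG12158 at 1821 and 2156 in late night.

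Shared differences are ranked by the smaller in size of the log2 differences at the 2 temperatures, not by their mean. Among genes with a mean level of at least 5, the 5 with the largest shared differences had higher levels at 18°C than at 29°C at both times. CG17298 had a level of 33.4 at 18°C and 0.095 at 29°C in late night, against 130 and 12.6 in ZT3, so that each late-night value was below its own ZT3 value while the groups overlapped across temperatures. Its log2 differences were -1.93 at 18°C and -3.63 at 29°C, a mean of -2.78 ± 0.83 (SE, limma, adjusted p = 0.377). Refitted without the late-night library at 29°C, the difference was -1.45, and without that at 18°C it was -4.12. With 1 library left out, the fitted difference also rests on the ZT15 libraries and is not that of the remaining pair. dyw, daywake, a member of the takeout family that is known to act on daytime sleep, had 31.9 and 6.83 in late night, against 92.1 and 23.4 in ZT3. The log2 differences of dyw were close to each other, -1.50 at 18°C and -1.64 at 29°C. The SE of their mean by limma was 0.80 in the fit of 6 libraries and 0.12 in that of 4. The refit of dyw, with ZT15 in the estimate, gave -0.76 without the late-night library at 29°C and -2.38 without that at 18°C. The exons of dyw and per overlap on opposite strands at their 3′ ends in the BDGP6 annotation. The coverage is not stated to use strand, so reads of the overlap cannot be assigned to one of them. per itself did not share this pattern, as given with the clock genes.

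Sclp was at 126 and 12.1 in late night, against 294 and 33.0 in ZT3, a mean log2 difference of -1.29 ± 0.25 (SE, limma, adjusted p = 0.377). frm had 8.75 and 0.69 in late night, against 22.5 and 6.42 in ZT3. Its log2 differences were -1.27 at 18°C and -2.14 at 29°C, a mean of -1.70. The refit of frm, with ZT15 in the estimate, gave -0.56 without the late-night library at 29°C and -2.84 without that at 18°C. CG2444, whose exons overlap PhKgamma on the opposite strand, had 15.03 and 4.44 in late night, against 41.3 and 11.6 in ZT3. For Sclp, both libraries at 18°C lay above both at 29°C, so the time difference is seen only within a temperature. CG8483 was at 97.9 and 1.18 in late night, against 156 and 41.4 in ZT3, and was picked after its values were seen. Its log2 differences were -0.67 at 18°C and -4.28 at 29°C, a mean of -2.47. The refit of CG8483, with ZT15 in the estimate, gave -0.14 without the late-night library at 29°C and -4.81 without that at 18°C.

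The other genes among the 12 with the largest shared differences towards lower levels were CG13796, dnd, Lsp1beta, mRpS5, Cpr50Cb, sr and NijA. Lsp1beta, a larval serum protein, had 3.77 and 14.95 in late night, against 9.21 and 29.7 in ZT3. mRpS5, a protein of the mitochondrial ribosome, had 21.1 and 9.08 in late night, against 41.6 and 22.0 in ZT3. Its groups did not overlap, and it is one of the 30 kept genes nearest the centromere of 3L, a group described with chromosome 4. NijA, Ninjurin A, a membrane protein induced by tissue damage, had 17.7 and 6.74 in late night, against 34.2 and 13.3 in ZT3. Below these, Mmp1, a secreted matrix metalloproteinase, was at 43.4 and 10.002 in late night, against 90.3 and 17.1 in ZT3, and Dronc, an initiator caspase, at 11.0 and 2.93 in late night, against 24.1 and 5.35 in ZT3. Mmp1 and Dronc were named after their values were seen.

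Shared differences towards higher levels were smaller, and 0 genes reached 2-fold at both temperatures. CG12158 was among the most abundant transcripts concerned, with 1821 and 2156 in late night, against 1062 and 1396 in ZT3. All late-night values of CG12158 lay above all ZT3 and ZT15 values of the series, and the mean log2 difference was 0.70 ± 0.10 (SE, limma, adjusted p = 0.377). CG6409 had 624 and 648 in late night, against 354 and 372 in ZT3, with log2 differences of 0.82 at 18°C and 0.80 at 29°C. CG14221 had 3.60 and 15.1 in late night, against 1.46 and 5.83 in ZT3. In the fit of the 4 libraries alone, CG14221 (adjusted p = 0.0146) and CG6409 (adjusted p = 0.0356) were the 2 transcripts called higher by limma.

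Gnmt, glycine N-methyltransferase, which consumes S-adenosylmethionine, had 42.0 and 52.7 in late night, against 26.9 and 16.8 in ZT3. Its groups did not overlap at these temperatures, but both 25°C libraries were higher still, at 83.3 at ZT3 and 116 at ZT15. Culd, which takes part in the endocytic turnover of rhodopsin in photoreceptors, had 119 and 147 in late night, against 73.3 and 98.2 in ZT3. sn, the actin-bundling protein fascin, had 65.5 and 59.9 in late night, against 46.5 and 41.5 in ZT3, and Sr-CI, a scavenger receptor of hemocytes, had 14.4 and 22.0 in late night, against 9.96 and 15.01 in ZT3. The remaining members of this group of 12 were CG13670, CG34180, CG1632, eIF4H1 and CG40486, with mean log2 differences between 0.53 and 0.84. CG40486 is one of the 30 kept genes nearest the centromere of X.

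The repressors of the clock differed in sign between the 2 temperatures. tim, the partner of PER, was at 19.1 at 18°C and 61.0 at 29°C in late night, against 25.9 and 21.3 in ZT3, log2 differences of -0.42 at 18°C and 1.48 at 29°C. The 8 listed transcripts of tim had log2 differences from -0.44 to -0.42 at 18°C and from 1.42 to 1.48 at 29°C. In late night at 29°C, CG3234-RC was at 49.2, against 61.0 for the transcript that represents tim. Coverage of exons that transcripts share counts in each of them. These values thus cannot show whether single transcripts of tim behave alike. per was at 7.65 and 8.56 in late night, against 11.3 and 5.84 in ZT3, log2 differences of -0.51 at 18°C and 0.48 at 29°C. vri, a bZIP repressor of Clk transcription, was at 15.8 and 20.1 in late night, against 33.0 and 11.6 in ZT3, log2 differences of -1.02 at 18°C and 0.75 at 29°C. cwo had the same signs in smaller size, with 15.95 and 14.3 in late night, against 18.1 and 13.5 in ZT3. With 1 library at each temperature and time, the difference between the temperatures was not tested.

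In the mean of both temperatures, per, vri and cwo were near 0. The mean log2 difference was -0.01 ± 0.25 for per, 0.53 ± 0.44 for tim, -0.13 ± 0.53 for vri and -0.05 ± 0.12 for cwo (SE, limma, adjusted p between 0.632 and 0.993). The ZT15 level of tim, 84.1 at 18°C, 143 at 25°C and 152 at 29°C, was above that of every other library, and per and vri were likewise highest at ZT15 at each temperature. The ZT3 level of vri was also 9.39 at 25°C, near that at 29°C and below the 33.0 at 18°C.

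For the other core clock genes, the log2 differences between the 2 times were at most 0.26 in size at each temperature. Clk was at 11.5 and 13.6 in late night, against 9.42 and 12.5 in ZT3, and cry, the blue-light photoreceptor of the clock, was at 70.6 and 79.5 in late night, against 73.3 and 94.4 in ZT3. The exons of cry overlap vib on the opposite strand. cyc, which does not cycle, was at 15.7 and 14.02 in late night, against 15.4 and 14.8 in ZT3. Pdp1, an activator of Clk transcription, was at 125 and 98.3 in late night, against 116 and 86.3 in ZT3, and jet, an F-box protein that targets TIM after light, was at 10.5 and 11.98 in late night, against 10.6 and 12.5 in ZT3. Of the 9 clock kinases and turnover genes, 4 were higher and 3 lower at both temperatures, beside 28.9% and 31.5% of all genes. None of the 9 reached 1.5-fold at either temperature.

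**Figure D3:**
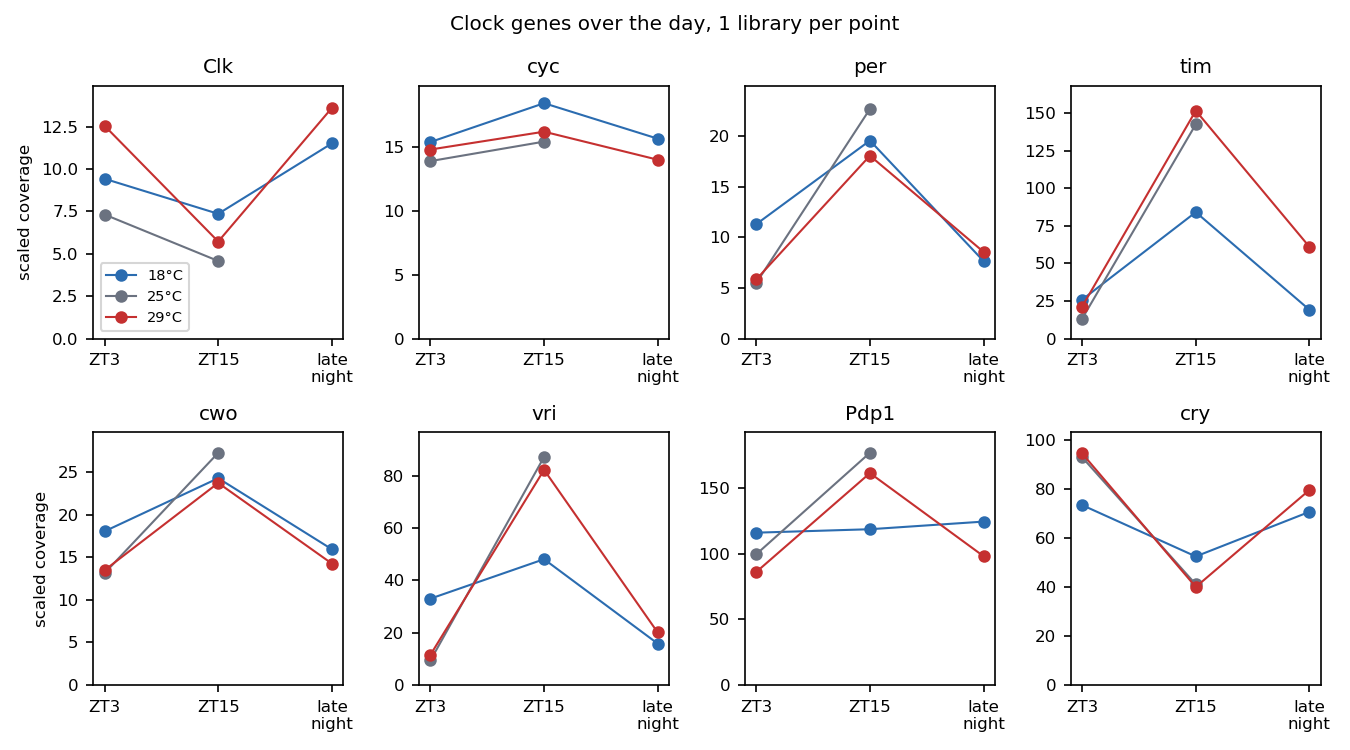
Scaled coverage of 8 clock genes at ZT3, ZT15 and late night, with 1 library per point and lines joining the libraries of a temperature (18°C blue, 25°C grey, 29°C red). tim, per, vri and cwo peak at ZT15, and late-night tim is 61.0 at 29°C and 19.1 at 18°C, while Clk and cry are lowest at ZT15.

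Among genes with a mean level of at least 5, 4 of the 6 with the largest opposite differences were immune effectors. CecA1, a cecropin-type antimicrobial peptide, was at 0.62 at 18°C and 19.7 at 29°C in late night, against 4.46 and 4.39 in ZT3. AttB, an attacin, was at 3.71 and 90.7 in late night, against 11.9 and 27.6 in ZT3. Attacins and cecropins have near-identical copies in the genome, so the split of coverage among them is uncertain. Of 8 antimicrobial peptide genes kept, 8 were lower at 18°C (47.2% of all genes) and 6 were higher at 29°C (44.6%), with medians of -0.75 and 1.21. DptB, a diptericin, was at 3.84 and 90.0 in late night, against 5.88 and 116 in ZT3, and was lower at both temperatures. BomBc1 and BomS5, secreted peptides of the Toll response called bomanins, had the opposite signs and were named for the size of their differences. BomBc1 was at 18.7 and 15.03 in late night, against 5.41 and 31.5 in ZT3, and BomS5 at 254 and 290 in late night, against 133 and 655 in ZT3.

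Vajk3, a cuticle-related gene, and CG3999 had the signs of CecA1. Vajk3 was at 230 and 67.6 in late night, against 457 and 30.1 in ZT3. CG3999 was at 13.1 and 19.7 in late night, against 26.4 and 8.24 in ZT3. Of 43 cuticle protein genes kept, 34 were lower at 18°C and 27 were higher at 29°C, with medians of -0.28 and 0.13, beside 47.2% and 44.6% of all genes. Cpr49Ac was the member at least 2-fold lower at both temperatures, at 1.22 and 0.13 in late night, against 3.94 and 1.33 in ZT3.

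Of the antenna, 4 genes of low level had larger opposite differences than BomBc1 and BomS5. Obp83a, an odorant-binding protein of the antenna, was at 8.21 at 18°C and 0.39 at 29°C in late night, against 0.53 and 3.53 in ZT3. Os-C was at 2.54 at 18°C and listed at 0 at 29°C in late night, against 0 at 18°C and 1.84 at 29°C in ZT3. Obp83b and a10, an antennal protein, followed the same order, with a10 at 4.91 and 1.11 in late night, against 0.15 and 4.83 in ZT3. These 4 genes were chosen after their values were seen. The 27 odorant-binding proteins kept, a list that holds 2 of them, had 8 higher and 8 lower at both temperatures, beside 28.9% and 31.5% of all genes. The medians of that list were 0.09 and -0.02. The 4 antennal genes were high in late night at 18°C and in ZT3 at 29°C and low in the other 2 libraries compared. In every ZT15 and 25°C library they were also above those 2 low libraries. Obp83a was at 7.50 and 17.7 at ZT15 at 18°C and 29°C, and at 4.20 at ZT3 and 3.14 at ZT15 at 25°C. The part of these 4 genes in the opposite moves of other genes was not tested.

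Genes of the proteasome, the protease that degrades ubiquitin-tagged proteins including TIM, were lower in late night, mostly at 18°C. Of 29 kept, 29 were lower at 18°C, beside 47.2% of all genes, and 21 were lower at 29°C, beside 55.3%. The median was -0.61 at 18°C, with a range from -0.91 to -0.33, and -0.11 at 29°C, with a range from -0.37 to 0.18. Summed over the list, late night gave 2085 at 18°C and 1306 at 29°C, against 3184 and 1398 in ZT3. The ZT15 sums were 3293 and 1812. Rpn9, a lid subunit, was at 69.7 and 36.6 in late night, against 131 and 43.0 in ZT3, and Prosalpha4, a core particle subunit, at 50.2 and 37.6 in late night, against 91.4 and 45.4 in ZT3. By limma, 10 of the 29 had an unadjusted p under 0.05, all lower, beside 6.97% of all genes, and 0 had an adjusted p under 0.05.

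Of 12 genes of the unfolded protein response kept, 8 were lower and 0 higher at both temperatures, beside 31.5% and 28.9% of all genes, with medians of -0.19 at 18°C and -0.12 at 29°C. Atf6, a membrane-bound factor that is cleaved under stress of the endoplasmic reticulum, was the largest, at 12.1 and 4.55 in late night, against 21.3 and 8.94 in ZT3. It is one of the 30 kept genes nearest the centromere of 2R. The other 11 differed by less than 1.5-fold at one or both temperatures.

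Of 62 genes of oxidative phosphorylation kept, 34 were higher and 5 lower at both temperatures, beside 28.9% and 31.5% of all genes, with medians of 0.12 at 18°C and 0.06 at 29°C. COX5B, a subunit of complex IV, was at 546 and 431 in late night, against 416 and 368 in ZT3, and ND-13B, a subunit of complex I, at 151 and 111 in late night, against 100.9 and 97.6 in ZT3. By limma, 5 of the 62 had an unadjusted p under 0.05, all higher, beside 4.6% of all genes higher and 6.97% lower with such a p. The list of photoreceptor markers ran in the same direction, with 8 of 12 higher at both temperatures and 0 lower at both, and medians of 0.24 and 0.03. Related lists were more mixed. Of 12 genes of rhodopsins and their chromophore, a list that shares ninaE, 4 were higher and 4 lower at both, with medians of 0.20 and -0.05. Of 19 phototransduction genes, 10 were higher and 3 lower at both, with medians of 0.07 and 0.04. ninaE, which encodes the main rhodopsin of the outer photoreceptors, was at 10004 and 17003 in late night, against 6883 and 15409 in ZT3. The summed level of the 12 photoreceptor genes was 19631 and 29123 in late night, against 14884 and 27376 in ZT3, and the part of this in the other differences was not tested.

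Detoxification enzymes fall into 3 families here. Of 17 UDP-glycosyltransferase genes kept, whose products add sugars to small lipophilic compounds, 12 were lower and 0 higher at both temperatures, beside 31.5% and 28.9% of all genes, with medians of -0.06 at 18°C and -0.28 at 29°C. Ugt301D1 was at 31.6 and 14.4 in late night, against 41.5 and 22.2 in ZT3. Of 18 glutathione S-transferases, 9 were lower and 1 higher at both, and of 54 cytochromes P450, 24 were lower and 10 higher at both. At 18°C alone, 29 cytochromes P450 were higher and 25 lower, beside 52.5% and 47.2% of all genes, with a median of 0.01. None of these 3 families had a member at least 1.5-fold lower or higher at both temperatures, beside 0.554% and 0.0723% of all genes.

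Among 19 sleep regulators, 9 were lower and 6 higher at both temperatures, beside 31.5% and 28.9% of all genes. Those with the largest mean differences were subunits of ion channels. nAChRalpha4, a nicotinic acetylcholine receptor subunit, was at 8.85 and 2.99 in late night, against 13.1 and 7.92 in ZT3, and is one of the 30 kept genes nearest the centromere of 3L. Rdl, a GABA-A receptor subunit, was at 89.6 and 80.1 in late night, against 70.4 and 56.2 in ZT3. Hk, the beta subunit of the Shaker potassium channel, was at 121 and 99.8 in late night, against 99.99 and 67.7 in ZT3. For Rdl the groups did not overlap, and its mean log2 difference was 0.42 ± 0.10 (SE, limma, adjusted p = 0.377). These 3 genes were named after their values were seen.

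**Figure D4:**
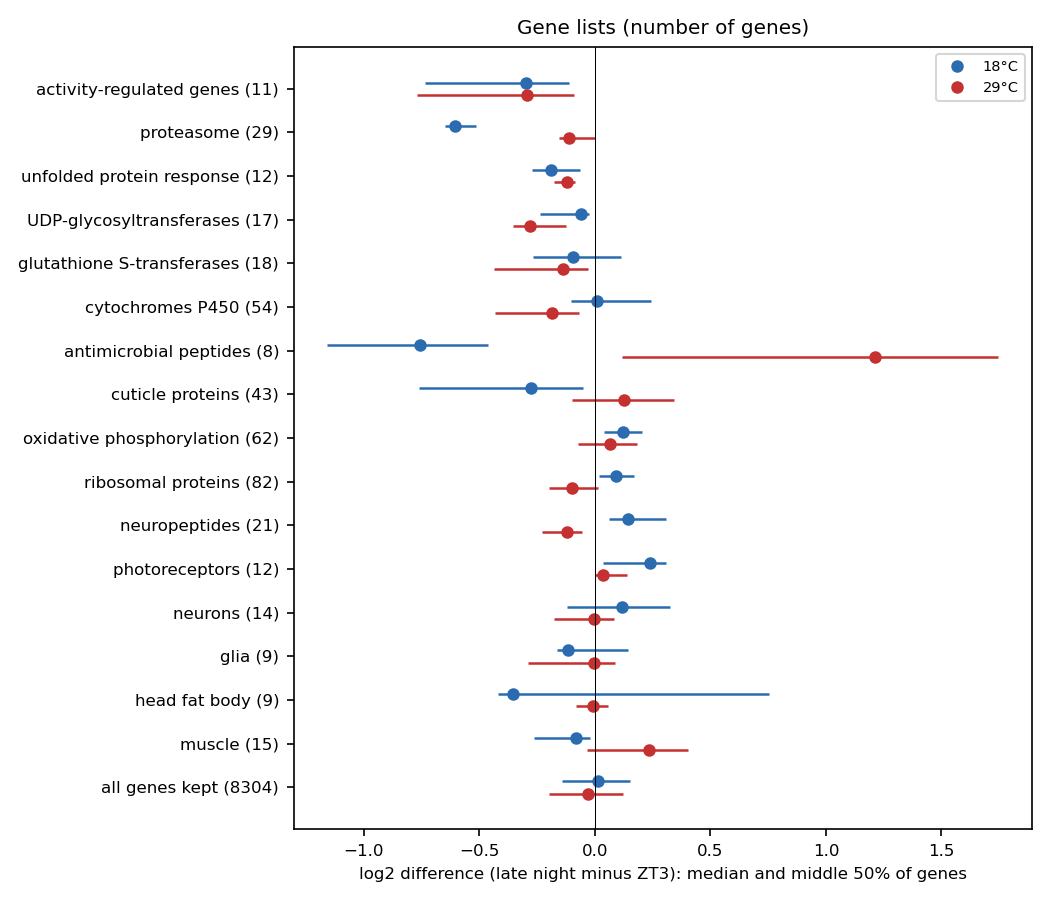
Log2 differences (late night minus ZT3) for 16 gene lists and for all genes kept, with the number of genes in brackets. Points are medians and lines span the middle 50% of genes, blue for 18°C and red for 29°C, and the proteasome median of -0.61 at 18°C and the antimicrobial peptide medians of -0.75 and 1.21 lie farthest from 0.

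Most genes of the fourth chromosome were lower in late night. The fourth is small and largely heterochromatic, and its genes are bound by the protein Pof and by HP1. Of its 76 genes kept, 65 were lower and 2 higher at both temperatures, beside 31.5% and 28.9% of all genes. The median was -0.31 at 18°C and -0.43 at 29°C, while genes elsewhere had medians of 0.02 and -0.03. Summed over the 76 genes, late night gave 5122 at 18°C and 3351 at 29°C, against 5880 and 4445 in ZT3. The difference between ZT15 and ZT3, which shares the ZT3 libraries, had medians of 0.13 and 0.29 in these genes and of 0.11 and 0.14 elsewhere. The chromosome was noticed after the values were seen, so that no test is given.

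Arf4, a small GTPase of the Golgi, was the member with the largest difference, at 43.7 and 29.4 in late night, against 71.2 and 54.4 in ZT3. CaMKI, a calcium-dependent kinase, was at 91.3 and 53.3 in late night, against 132 and 80.3 in ZT3, and Cals, the synaptic protein calsyntenin, at 76.7 and 26.6 in late night, against 121 and 40.1 in ZT3. By the transcript that represents each gene, only Arf4 of the 76 was at least 1.5-fold lower at both temperatures, so the group's difference came from many small ones. Another transcript of CG11155, also on this chromosome, had log2 differences of -0.71 at 18°C and -0.90 at 29°C.

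The genes nearest the centromere on other arms moved in part the same way, by the gene order of the RefSeq Release 6 annotation. Of the 30 kept genes nearest the centromere of 2R, 27 were lower at both temperatures, with medians of -0.36 at 18°C and -0.63 at 29°C. Those of 2L had medians of -0.14 and -0.32, those of 3L -0.01 and -0.25, those of 3R -0.06 and -0.09, and those of X 0.09 and -0.02. Without these 30, the medians of the 5 arms lay between 0.00 and 0.05 at 18°C and between -0.06 and 0.03 at 29°C. Chromosome 4 genes have longer spans, with a median of 10474 base pairs in BDGP6 against 3258 elsewhere, and the 1644 genes elsewhere with the longest spans, with a median of 22270, had medians of 0.08 and 0.02. Base composition was not analysed here.

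**Figure D5:**
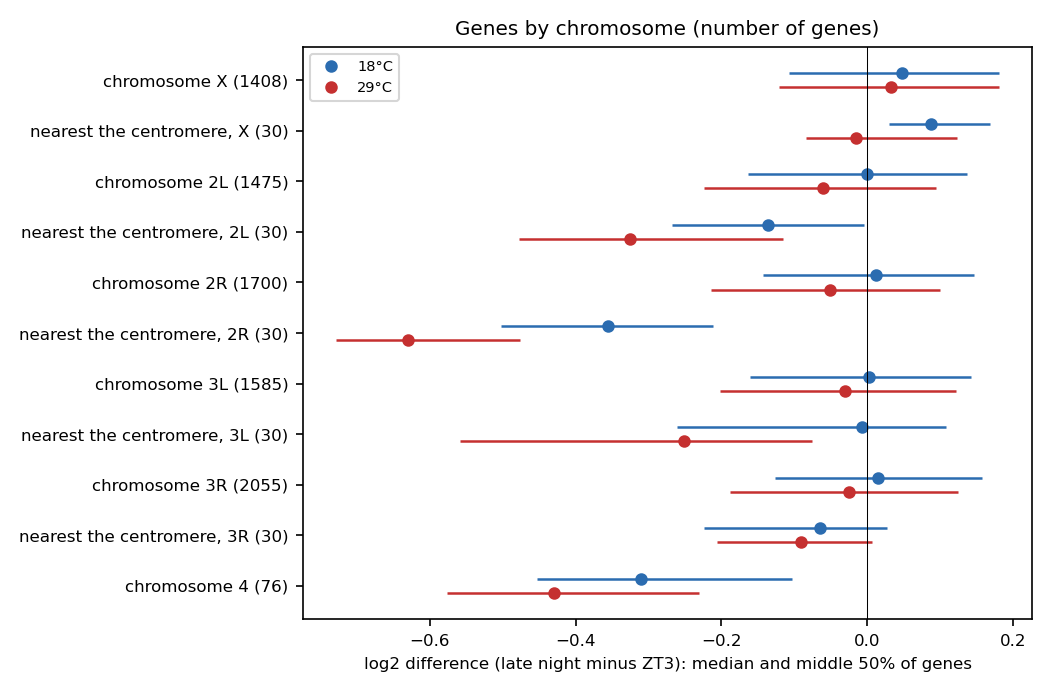
Log2 differences (late night minus ZT3) of the genes of each chromosome arm and of the 30 kept genes nearest each centromere, with the number of genes in brackets. Points are medians and lines span the middle 50% of genes, blue for 18°C and red for 29°C, and chromosome 4 and the genes nearest the centromere of 2R lie lowest.

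The markers of head tissues were summed in each library. The summed level of 15 muscle genes was 8672 and 4732 in late night, against 10231 and 3844 in ZT3. That of 9 head fat body genes was 14076 and 17034 in late night, against 19445 and 17153 in ZT3. That of 9 glial genes was 1986 and 1155 in late night, against 1959 and 1079 in ZT3, and that of 14 neuronal genes 1242 and 928 in late night, against 1257 and 908 in ZT3. The sums of muscle and head fat body markers were lower in late night at 18°C, while at 29°C the muscle sum was higher and the head fat body sum nearly level. By gene at 18°C, 11 muscle genes were lower and 4 higher, and 6 head fat body genes were lower and 3 higher, beside 47.2% and 52.5% of all genes. The log2 differences of the head fat body genes at 18°C ranged from -1.78 to 1.22. The part of these in the gene differences was not tested.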

How the data were processed

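Libraries of polyA+ head RNA were made by ligation of barcoded linkers to fragments and read as paired ends, and the authors aligned the reads to dm3. The submitters' processing notes also name Bowtie2, TopHat and Cufflinks. The authors deposited 1 table of signal, the mean read coverage along each transcript, with no read counts. Its scaling and the use of strand are not given in the sources used here. A further 56 columns without a name hold values and were not used. Gene symbols were matched through RefSeq for 11380 of 11500 gene identifiers, and gene positions come from BDGP6 or Release 6, since no dm3 annotation was used.

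Values were scaled to 1000000 per library. Transcripts with a mean of at least 1 were tested as log2(value + 1) with limma 3.58.1 in R 4.3.3, with temperature and time as factors over 6 libraries, Benjamini-Hochberg adjustment and a threshold of 0.05. Alternatives were the 75th percentile and quantile scalings, pseudocounts of 0.1 and 5, no filter or a minimum mean of 5, other sets of libraries, no pairing, limma's trend, 1 value per gene, limits of 1.5-fold and 3-fold, and leaving out each library. Plots were drawn with matplotlib 3.10.9.

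Named genes are the 12 genes with the largest shared differences in each direction and the 6 with the largest opposite ones (mean level of at least 5), the core clock genes and the list members at least 2-fold different at both temperatures. Other genes were named after their values were seen. The members and lists were chosen with earlier results of these data known.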

Additional observations from a re-analysis of the deposited data

Results flagged for a closer look

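Of the 6 genes with the largest opposite moves and the core clock genes, 7 moved by at least 0.5 on the log2 scale in one direction at 18°C and in the other at 29°C. Each value rests on 1 library per temperature and time, and the difference between the temperatures was not tested. The change at 29°C minus that at 18°C was 3.69 for CecA1, 3.14 for AttB, -2.64 for BomBc1, 2.13 for Vajk3, 2.12 for CG3999, -2.10 for BomS5 and 1.76 for vri.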

How the results depend on the processing

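The count of 0 transcripts past limma's threshold held under every alternative except the fit of the 4 libraries alone, where 54 passed. Without the replicate block, that is with time alone in the same 6 libraries, 0 passed and the smallest adjusted p by limma was 1. Of the counts at least 2-fold different at both temperatures, that of lower transcripts (20) became 35 with a pseudocount of 0.1, 3 with a pseudocount of 5, 8 with a minimum mean of 5, 8 with 1 value per gene, 73 at 1.5-fold and 2 at 3-fold. That of higher transcripts (0) became 1 with a pseudocount of 0.1 and 7 at 1.5-fold. For these counts of size, leaving out a library leaves 1 temperature, and they were then 66 to 85 lower and 11 to 28 higher.

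Of 622 values of the 52 named genes with a shared direction, 4 changed sign, all with 1 library left out, and 21 passed the threshold, all with the 4 libraries alone. With 1 library left out, the fitted values of genes also rest on the ZT15 libraries. They are not the difference of the remaining pair. The range over the 4 libraries left out in turn was -0.026 to 0.40 for Clk, -0.095 to 0.38 for Pdp1 and -0.38 to 0.084 for cry. Of the named genes with a shared direction, beside CG17298, dyw, frm and CG8483, leaving out 1 library moved the fitted difference by over 1.5 times for CG13670, CG40486, DptB, Dronc, Gnmt, Mmp1, Prosalpha4, Rpn9, dnd and nAChRalpha4, all among those above 0.4 in size. The pairs themselves, at 18°C and 29°C, were -1.07 and -0.69 for Dronc and -1.04 and -0.72 for Mmp1. jet at 18°C was 0.0079 with the 75th percentile scaling. The chromosome 4 median, -0.35 in the mean of both temperatures, lay between -0.38 and -0.29 under the scalings, pseudocounts and minimum mean, and that of the proteasome, -0.35, between -0.35 and -0.33. These alternatives for lists were chosen after seeing the data. Depth is unknown, so low levels such as those of Hr38 have no counting error.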

Other observations

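The median gene of all kept was at 0.01 at 18°C and -0.03 at 29°C, with 52.5% higher at 18°C and 55.3% lower at 29°C. Of 21 neuropeptide genes kept, 18 were higher in late night at 18°C and 16 were lower at 29°C, with medians of 0.15 and -0.12. Of 82 ribosomal protein genes, 66 were higher at 18°C and 58 lower at 29°C, with medians of 0.09 and -0.10. None of either group was at least 1.5-fold lower or higher at both temperatures, beside 0.554% and 0.0723% of all genes.

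Among the 12 genes of lipolysis and fatty acid oxidation, 7 were lower and 0 higher in late night at both temperatures, beside 31.5% and 28.9% of all genes, with medians of -0.09 at 18°C and -0.08 at 29°C. Among the 12 of fatty acid synthesis and storage, 7 were lower and 2 higher at both, with medians of -0.21 and -0.03.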
